A study of Mus musculus with 10 samples.

Results

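Mitochondrial ribosomal protein genes were taken as the genes whose symbol starts with Mrpl or Mrps and a digit, on probe sets that the platform annotation gives to a single gene. The rule found 71 such genes on 80 probe sets, of 22180 genes in all, 43 of them named Mrpl and 28 named Mrps. Where a gene had more than 1 probe set, which held for 9 of the 71, the brightest one, by its mean of the 10 arrays, stood for the gene. A further 7 genes (Mrpl30, Mrpl33, Mrpl41, Mrpl43, Mrpl44, Mrpl53 and Mrps6) were read only by probe sets shared with another gene and were not analysed here. Of the 71 genes, 70 passed a filter on dim probe sets set at a log2 level of 5.32. Mrps36, with a mean of 5.31, lay just outside the filter, and Mrpl36, with a mean of 5.41, and Mrpl32, with a mean of 5.46, lay just inside it.

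The study compared RNA from sorted cortical astrocytes of FMR1-KO mice with that of wild-type mice, called Control, with 5 Affymetrix arrays per group and mice of 8 weeks in both. FMR1-KO mice carry a disruption of Fmr1, the gene for the RNA-binding protein FMRP, whose loss causes fragile X syndrome in humans. In both groups the cells were sorted on an EGFP reporter expressed in astrocytes. Neither the labels nor the design text give the promoter that drives it, the Fmr1 allele, the strain or any pooling of animals. The labels call the arrays biological replicates without saying that each is a separate animal, so each p-value measures only the spread among samples, which may be technical.

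Mitochondrial ribosomes sit in the matrix of the mitochondrion and translate the few proteins encoded by mitochondrial DNA, all of them subunits of the respiratory chain and ATP synthase. Their proteins are encoded in the nucleus, made in the cytosol and imported, and many have a counterpart in the bacterial ribosome while others were added in the evolution of mitochondria. Astrocytes have both active glycolysis and abundant mitochondria, some of them in the fine processes near synapses and vessels. Symbols starting with Mrpl mostly name proteins of the large subunit, which joins amino acids, and those starting with Mrps proteins of the small subunit, which reads the mRNA. Mrps30 and Mrps18a are placed in the large subunit despite their names, and the protein of Mrps36 is now known as an adaptor of the alpha-ketoglutarate dehydrogenase complex. The 70 genes that passed the filter therefore divided into 45 of the large and 25 of the small subunit.

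Promoters of these genes are known for binding sites of nuclear factors that act on many mitochondrial genes, among them the ETS-family factor GABP, NRF1 and YY1. Windows of 300 bases, from 250 before to 50 after an annotated start, were read from RefSeq (GRCm38.p6) for 62 of the 71 genes, which gave 68 windows, and were searched on both strands for the motifs CCGGAAG (ETS), GCGCATG (NRF1) and ATGGCGG (YY1). The ETS motif stood in 23 of the 68 windows (33.8%), against 8.86% of all 32851 mouse promoter windows of this length. The NRF1 motif stood in 7 (10.3%), against 3.91% of all windows, and the YY1 motif in 12 (17.6%), against 4.05%. Most of the YY1 matches lay on the strand of the gene shortly after the annotated start, as at positions 14 to 20 in Mrps18a. ATGGCGG begins with ATG, so a match there may also be a start codon. Whether any match is bound by its factor was not tested. At least 1 of the 3 motifs stood in 34 windows (50%), against 15% of all. The median GC content was 58.5% in the members' windows and 52.7% in all windows, and no member window had overlapping matches of different motifs. Windows of 4 members are printed 5′ to 3′ on the strand of the gene, with the motifs in capitals. The window of Mrpl24, the member whose groups did not overlap, lies at chr3:87919294-87919593 (+ strand) and holds none of the 3 motifs. The window of Mrpl52 at chr14:54426659-54426958 (+ strand) shows 2 ETS motifs, both on the opposite strand. That of Mrpl32 at chr13:14612988-14613287 (- strand) shows NRF1 motifs on both strands, 5 in all with some overlapping each other, and that of Mrps18a at chr17:46110754-46111053 (+ strand) shows 1 ETS and 1 YY1 motif together.
Mrpl24: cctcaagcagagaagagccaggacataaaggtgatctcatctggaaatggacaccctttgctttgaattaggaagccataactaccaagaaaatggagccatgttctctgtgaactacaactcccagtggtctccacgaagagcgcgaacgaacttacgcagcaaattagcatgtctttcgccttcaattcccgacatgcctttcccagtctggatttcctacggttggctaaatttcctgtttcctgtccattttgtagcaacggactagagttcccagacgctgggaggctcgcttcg
Mrpl52: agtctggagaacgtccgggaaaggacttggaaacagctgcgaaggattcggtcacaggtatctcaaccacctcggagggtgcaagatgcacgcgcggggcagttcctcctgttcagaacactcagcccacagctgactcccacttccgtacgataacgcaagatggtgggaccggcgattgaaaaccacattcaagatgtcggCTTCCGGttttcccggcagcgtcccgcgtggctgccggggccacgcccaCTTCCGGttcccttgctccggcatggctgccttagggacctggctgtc
Mrpl32: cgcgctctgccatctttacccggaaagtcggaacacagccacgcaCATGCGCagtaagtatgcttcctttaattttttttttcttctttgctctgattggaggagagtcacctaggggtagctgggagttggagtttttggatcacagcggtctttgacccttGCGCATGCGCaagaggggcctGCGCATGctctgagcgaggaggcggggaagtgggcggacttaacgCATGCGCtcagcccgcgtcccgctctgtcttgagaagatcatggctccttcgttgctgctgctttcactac
Mrps18a: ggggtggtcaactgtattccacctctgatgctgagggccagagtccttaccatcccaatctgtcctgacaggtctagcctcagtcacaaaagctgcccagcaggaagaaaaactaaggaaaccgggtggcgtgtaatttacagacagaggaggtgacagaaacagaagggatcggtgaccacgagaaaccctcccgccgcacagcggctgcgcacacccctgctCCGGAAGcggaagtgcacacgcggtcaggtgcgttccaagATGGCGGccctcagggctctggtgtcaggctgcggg

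Before the members are described, the arrays as a whole are described, since their state bears on every comparison. The deposited log2 values had array medians between 6.11 and 6.24. Fmr1 itself, the targeted gene, was not lower on the arrays labelled FMR1-KO, with 8.22 ± 0.15 against 8.04 ± 0.26 on Control arrays (SD, n = 5 each) and a limma adjusted p of 0.704, and whether its probe set covers the disrupted stretch is not known here. Xist read 10.60 and 10.98 on Control arrays 2 and 3 and 4.98 to 5.23 on the other 8, with Uty, Kdm5d and Eif2s3y the other way round. By these sex-linked genes those 2 arrays read as female and the other 8, among them all 5 labelled FMR1-KO, as male. The groups are therefore not balanced in this signal. The mean of 14 astrocyte markers was 10.06 to 10.97 on arrays labelled FMR1-KO and 9.87 to 10.56 on Control arrays. Microglial transcripts were also abundant, with a mean over 13 measured markers of 9.44 to 10.86 on arrays labelled FMR1-KO and 10.18 to 11.17 on Control arrays. Choroid plexus markers were at 8.05 to 9.39 on arrays labelled FMR1-KO and 8.49 to 9.47 on Control arrays, and the means of neuronal, oligodendrocyte and endothelial markers stayed between 5.97 and 6.79 on every array. In bulk samples of this kind, fewer cells of a type and less RNA per cell cannot be told apart.

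Mitochondrial ribosomal protein mRNAs were at similar average levels in both groups. The mean log2 level over the 70 members was 6.88, 6.94, 6.82, 6.74 and 6.60 on the 5 arrays labelled FMR1-KO and 6.85, 6.81, 6.83, 6.90 and 6.76 on the 5 Control arrays. That is 6.80 ± 0.13 on arrays labelled FMR1-KO and 6.83 ± 0.05 on Control arrays (SD, n = 5 each), a difference of -0.04 that is smaller than the spread within either group. Arrays labelled FMR1-KO held both the highest and the lowest mean, array 2 and array 5, and the Control arrays all lay between them. Both subunits showed this order. The 45 large-subunit genes averaged 6.83, 6.90, 6.76, 6.70 and 6.53 on the arrays labelled FMR1-KO and 6.79, 6.77, 6.79, 6.87 and 6.72 on the Control arrays. For the 25 small-subunit genes the means were 6.97, 7.01, 6.91, 6.82 and 6.73 on the arrays labelled FMR1-KO and 6.96, 6.89, 6.91, 6.96 and 6.84 on the Control arrays.

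**Figure D1:**
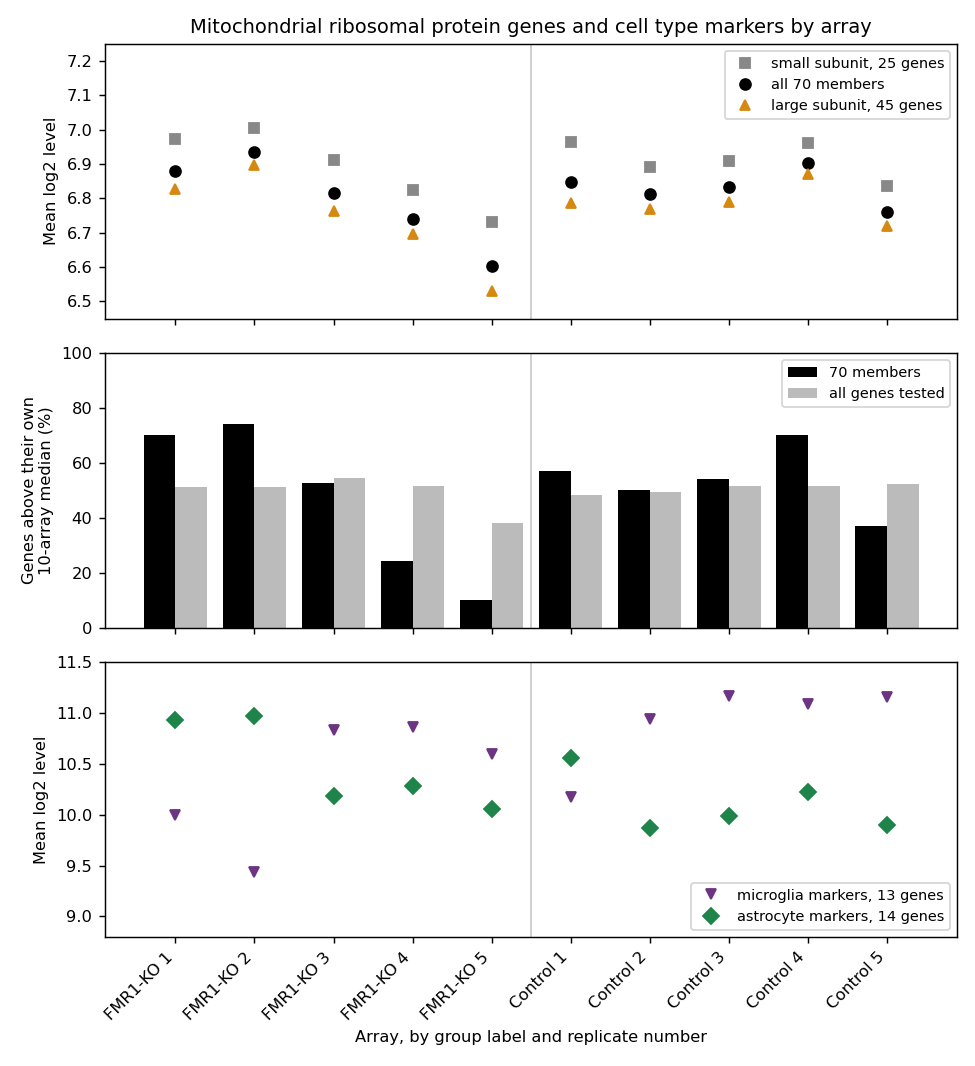
Values per array, arrays 1 to 5 labelled FMR1-KO at the left and Control arrays 1 to 5 at the right: mean log2 level over all members and over each subunit, the percent of genes above their own median over the 10 arrays for members and all genes, and the mean log2 level of microglia and astrocyte markers. The members' mean was highest at 6.94 on array 2 and lowest at 6.60 on array 5 labelled FMR1-KO.

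The spread among the arrays labelled FMR1-KO ran through most of the members. Counted against each gene's own median over the 10 arrays, 49, 52, 37, 17 and 7 of the 70 members were above it on arrays 1 to 5 labelled FMR1-KO, and 40, 35, 38, 49 and 26 on Control arrays 1 to 5. On array 5 labelled FMR1-KO this is 10.0% of the members beside 38.1% of all 17712 genes tested, and on array 2 it is 74.3% of the members beside 51.4% of all genes. Array 5 labelled FMR1-KO was the lowest of the 10 arrays for 33 members (47.1%), 25 of the large and 8 of the small subunit, beside 17.4% of all genes. Array 2 labelled FMR1-KO was the highest for 23 members (32.9%), beside 19.2% of all genes. Level on array 5 was below that on array 2 in 58 of the 70 members (82.9%), with a median difference of -0.35, whereas over all genes this held for 56.4% with a median of -0.06. Arrays 2 and 5 were picked because the members' own mean was highest and lowest there. An excess of members over all genes in this order, here and in the counts above, therefore follows in part from that choice. The SD among arrays labelled FMR1-KO exceeded that among Control arrays in 43 members (61.4%), beside 50% of all genes, with member medians of 0.18 and 0.14. On those 2 arrays the microglia markers averaged 10.60 (array 5) and 9.44 (array 2) and the astrocyte markers 10.06 (array 5) and 10.97 (array 2), and the part of the cell mix in the members' order was not tested. A few members ran the other way: Mrpl22, Mrpl24, Mrps18b and Mrps28, picked out after their values were seen, had their lowest value of all 10 arrays on array 2 labelled FMR1-KO. They are 5.71% of the members, beside 17.1% of all genes with their lowest value there.

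**Figure D2:**
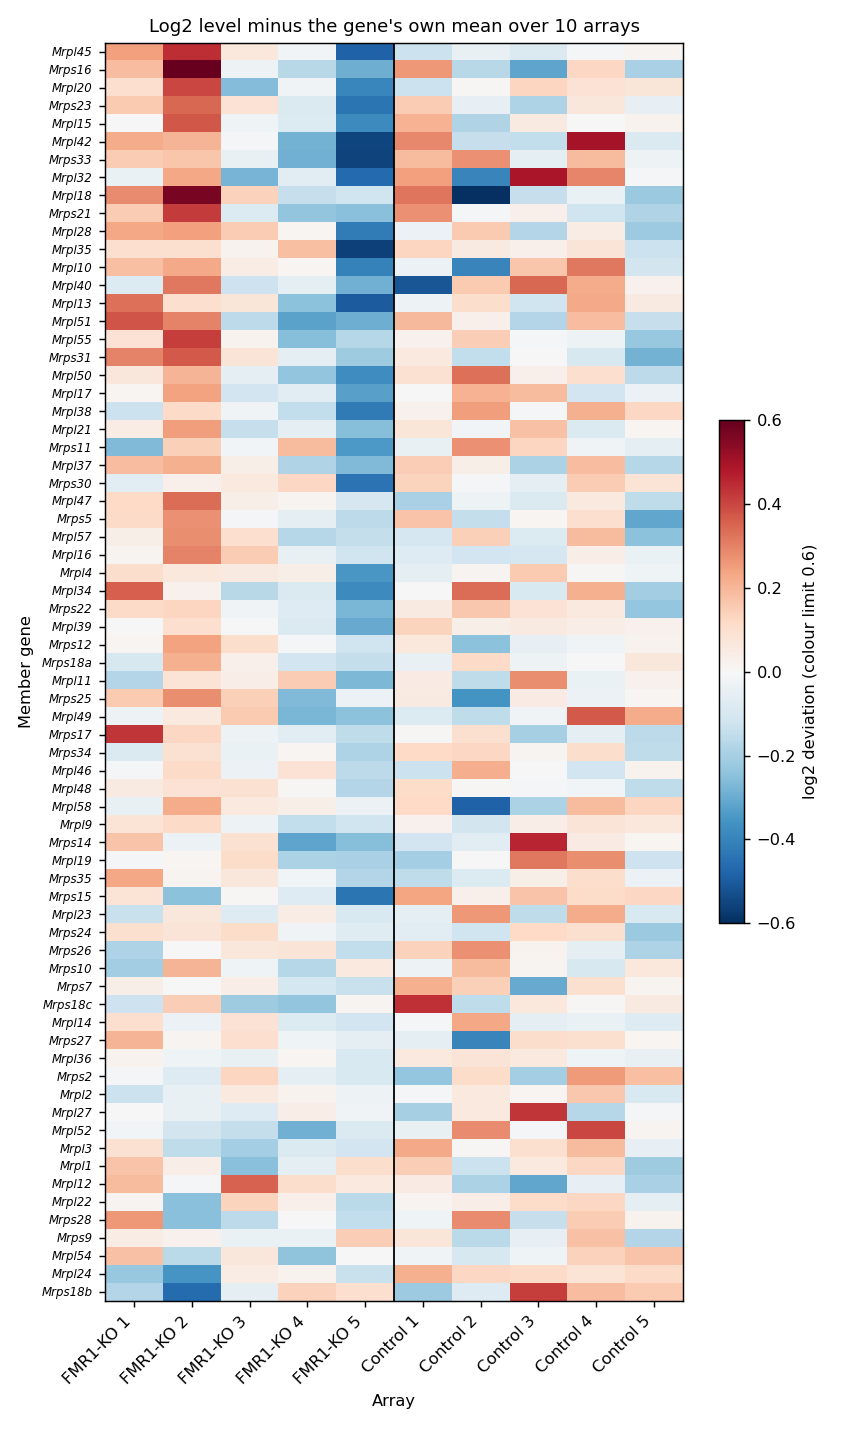
Each row is one of the 70 members and each column an array, with arrays labelled FMR1-KO at the left and Control arrays at the right; colour is the log2 level minus the gene's mean over the 10 arrays. Rows are ordered by array 5 minus array 2 labelled FMR1-KO, and 58 of 70 rows are lower on array 5. These arrays were picked by the members' own mean, lowest on array 5 and highest on array 2.

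No member passed the test between the groups. With limma and Benjamini-Hochberg adjustment over 17712 genes, 0 of the 70 members had an adjusted p under 0.05, and neither did any other gene, so that the background is 0%. The lowest adjusted p among the members was 0.654. At an unadjusted p under 0.05, 1 member was higher on arrays labelled FMR1-KO (1.43%, beside 4.0% of all genes) and 4 were lower (5.71%, beside 3.53% of all genes). Together these 5 are 7.14% of the members, near the 7.53% of all genes at that level. In 1 member, Mrpl24, the values of the groups did not overlap (1.43%, beside 0.965% of all genes). The mean was higher on arrays labelled FMR1-KO in 25 members, beside 46.8% of all genes, and lower in 45 (64.3%), beside 53.2% of all genes. The median difference of the members was -0.05 log2 units, with a range of -0.27 to 0.29, and that of all genes was -0.01. That median rests in part on array 5 labelled FMR1-KO: without it the median was -0.01 and 33 of the 70 members had a higher mean on arrays labelled FMR1-KO. When the microglia marker mean was added to the fit as a covariate, the group difference in that fit was above 0 in 16 members. The median difference there was -0.09, and again no gene passed.

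The precision of these data can be read from the intervals. The 95% interval of the difference held 0 for 65 of the 70 members, its median width was 0.48, and its bounds ran from -0.62 to 0.68 over the members. For 66 members the whole interval lay within 0.5 log2 units of 0. Differences were under 0.1 in size for 42 members and 0.2 or more for 8.

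**Figure D3:**
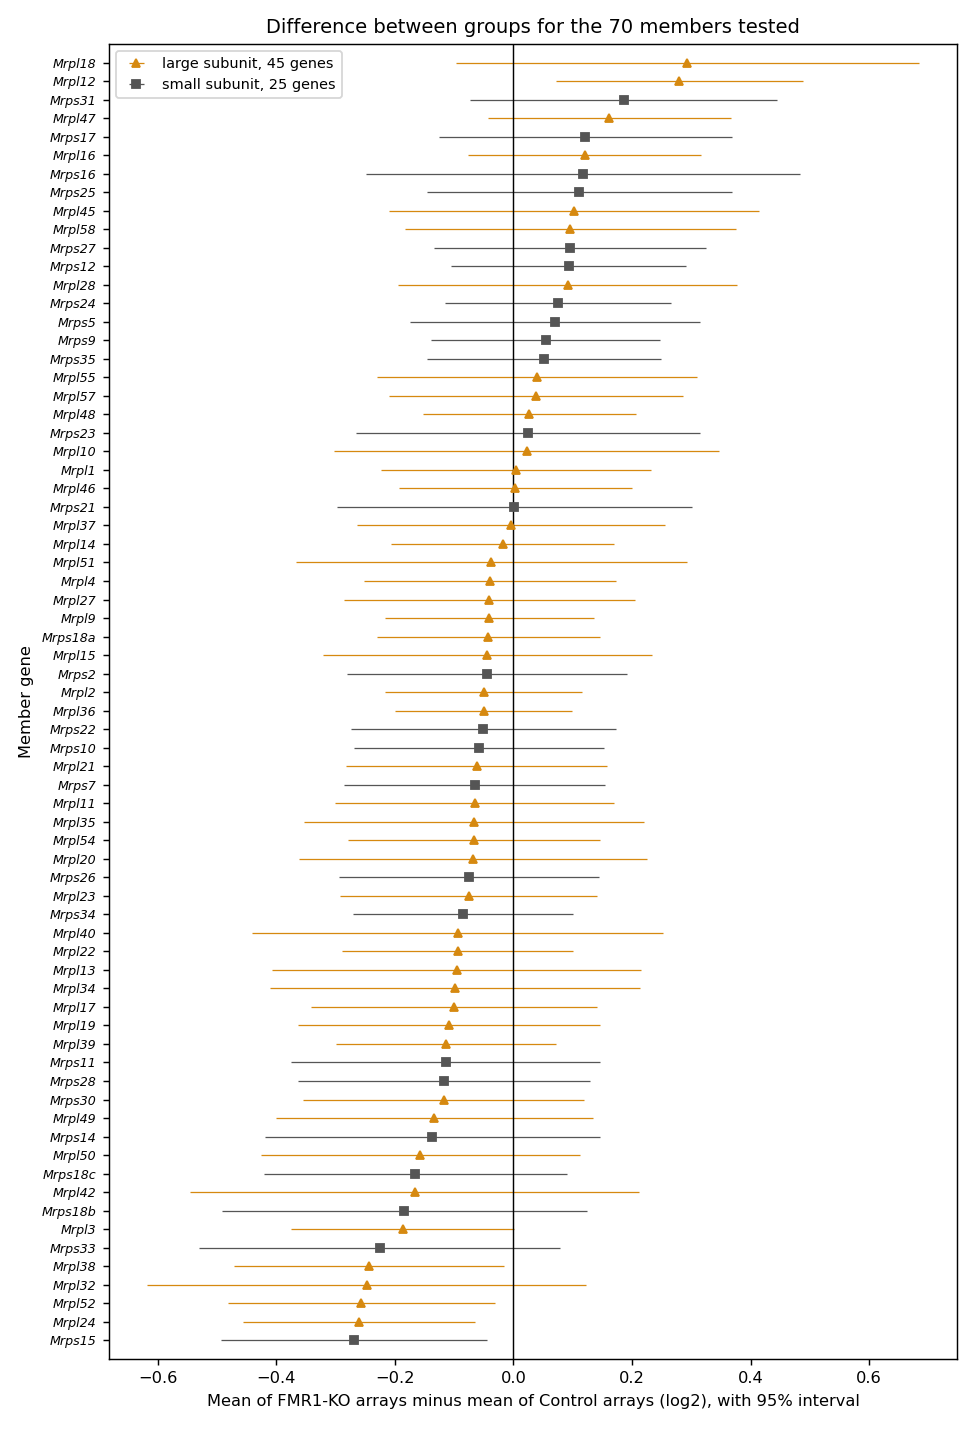
Difference in mean log2 level, arrays labelled FMR1-KO minus Control arrays, for each of the 70 members with its 95% interval (limma, n = 5 per group), large and small subunit apart. Of the intervals, 65 hold 0, and the points lie between -0.27 and 0.29.

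Genes at the entry site for translation factors had differences on both sides of 0. Mrpl12, the counterpart of the bacterial L7/L12 stalk protein that recruits elongation factors, was the member with the smallest p. It read 6.49, 6.29, 6.65, 6.41 and 6.36 on arrays labelled FMR1-KO, against 6.35, 6.11, 5.99, 6.25 and 6.10 on Control arrays. All 5 arrays labelled FMR1-KO lay above the Control mean, although array 2 labelled FMR1-KO lay below Control array 1, and the difference was 0.28 ± 0.10 (SE, limma adjusted p = 0.654). A dimmer probe set of the same gene gave -0.13, and the mean of both probe sets gave 0.08, so the direction for Mrpl12 depends on the probe set. Mrpl10, which anchors the stalk, differed by 0.02 ± 0.15, and Mrpl11 at the base of the stalk by -0.07 ± 0.11, with limma adjusted p of 0.980 and 0.897.

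Around the exit of the polypeptide tunnel, 4 of 6 genes had a lower mean on arrays labelled FMR1-KO, with a median difference of -0.09 and no member past the test. Mrpl24, the counterpart of bacterial L24 near the tunnel exit, had the separate groups. Its level was 8.63, 8.50, 8.89, 8.87 and 8.72 on arrays labelled FMR1-KO, against 9.06, 8.97, 8.97, 8.93 and 8.97 on Control arrays. The highest array labelled FMR1-KO lay just under the lowest Control array, and the difference was -0.26 ± 0.09 (SE, limma adjusted p = 0.654). Its lowest values were on arrays 1 and 2 labelled FMR1-KO, where the microglia markers averaged 9.99 and 9.44, the lowest of the 10 arrays. The difference was -0.13 without these 2 arrays and Control array 1, and -0.18 in the fit that took in the microglia signal as covariate. Mrpl45, which in human mitochondria ties the ribosome to the inner membrane, read 6.79, 6.99, 6.61, 6.53 and 6.06 on arrays labelled FMR1-KO, against 6.41, 6.498, 6.46, 6.54 and 6.56 on Control arrays. Its group means lay close, at 6.60 ± 0.35 and 6.49 ± 0.06, while its values on the arrays labelled FMR1-KO spread on both sides of all Control values. Mrpl47, the counterpart of L29, differed by 0.16 ± 0.09, and the counterparts of L23, L22 and L17 by -0.08 ± 0.10 (Mrpl23), -0.09 ± 0.09 (Mrpl22) and -0.10 ± 0.11 (Mrpl17), all with limma adjusted p of 0.678 or more.

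Elsewhere in the large subunit the members with the smallest p had lower means on the arrays labelled FMR1-KO. Mrpl52, a protein with no bacterial counterpart, read 7.59, 7.497, 7.46, 7.32 and 7.52 on arrays labelled FMR1-KO, against 7.56, 7.89, 7.60, 8.01 and 7.62 on Control arrays. Only array 1 labelled FMR1-KO reached into the Control range, and the difference was -0.26 ± 0.10 (SE, limma adjusted p = 0.654). Mrpl38, another protein added in mitochondria, read 7.58, 7.82, 7.69, 7.56 and 7.28 on arrays labelled FMR1-KO, against 7.74, 7.96, 7.70, 7.92 and 7.83 on Control arrays. The difference of Mrpl38 was -0.24 ± 0.10 (SE, limma adjusted p = 0.654), and the lowest value lay on array 5 labelled FMR1-KO. Mrpl3, the counterpart of bacterial L3 close to the peptidyl transferase centre, differed by -0.19 ± 0.09 (limma adjusted p = 0.654), with 7.36 ± 0.11 on arrays labelled FMR1-KO and 7.55 ± 0.12 on Control arrays (SD, n = 5 each).

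The widest spread over the 10 arrays among the members belonged to Mrpl18, with an SD of 0.34. This counterpart of bacterial L18 read 7.60, 7.88, 7.45, 7.17 and 7.19 on arrays labelled FMR1-KO, against 7.63, 6.66, 7.17, 7.27 and 7.09 on Control arrays. The groups overlapped over most of their range, and the difference was 0.29 ± 0.18 with a 95% interval of -0.10 to 0.68 (limma adjusted p = 0.686). It was 0.17 without Control array 2, whose value was the lowest of the 10, 0.19 without array 2 labelled FMR1-KO, and 0.04 in the microglia covariate fit. Mrpl32, whose precursor is cut by the m-AAA protease before it joins the ribosome, read 5.43, 5.70, 5.18, 5.40 and 4.997 on arrays labelled FMR1-KO, against 5.71, 5.07, 5.95, 5.76 and 5.45 on Control arrays. It lay close to the dimness filter, and its difference of -0.25 ± 0.17 had an adjusted p of 0.706 with limma and ran from -0.38 without Control array 2 to -0.16 without Control array 3. Mrpl42, a protein added in mitochondria, had an SD of 0.31 and differed by -0.17 ± 0.17, but by -0.05 without array 5 labelled FMR1-KO, by -0.06 without Control array 4 and by -0.35 in the microglia covariate fit. Mrpl16, the counterpart of bacterial L16, differed by 0.12 ± 0.09. Mrpl58, a peptidyl-tRNA hydrolase that frees stalled ribosomes, differed by 0.10 ± 0.13. At the narrow end, Mrpl36, Mrpl2 and Mrpl9 had SDs of 0.06, 0.08 and 0.09 and differences of -0.05, -0.05 and -0.04. Of these genes Mrpl36 lay just inside the dimness filter, so its narrow spread may be that of a dim signal. The members' median SD over the arrays was 0.18, the same as for all genes. Mrpl55, the counterpart of bacterial L31, differed by 0.04 ± 0.12.

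**Figure D4:**
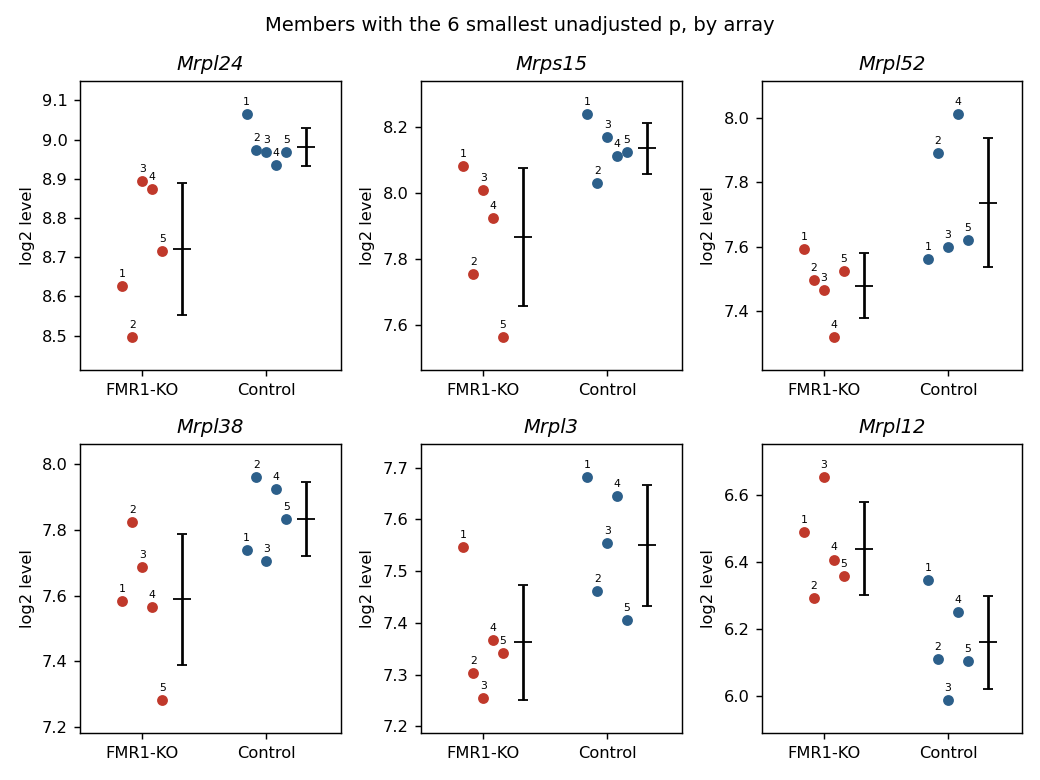
Log2 level on each array for Mrpl24, Mrps15, Mrpl52, Mrpl38, Mrpl3 and Mrpl12, arrays labelled FMR1-KO left of Control arrays in each panel; digits give the array number and bars the mean ± SD (n = 5). Of these 6 genes the groups are separate only for Mrpl24, with 8.50 to 8.89 on arrays labelled FMR1-KO and 8.93 to 9.06 on Control arrays.

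The small subunit was close to evenly divided, with 12 members higher and 13 lower on arrays labelled FMR1-KO and a median difference of -0.04, against 13 higher, 32 lower and a median of -0.05 in the large subunit. The difference between the subunits was not tested. Mrps15, the counterpart of bacterial S15, which binds the small ribosomal RNA, had the smallest p of the small subunit. It read 8.08, 7.75, 8.01, 7.92 and 7.56 on arrays labelled FMR1-KO, against 8.24, 8.03, 8.17, 8.11 and 8.12 on Control arrays. Array 1 labelled FMR1-KO alone lay above the lowest Control value, and the difference was -0.27 ± 0.10 (SE, limma adjusted p = 0.654). Mrps31, a protein without a bacterial counterpart, read 7.52, 7.59, 7.30, 7.16 and 7.005 on arrays labelled FMR1-KO, against 7.28, 7.07, 7.22, 7.12 and 6.94 on Control arrays, a difference of 0.19 ± 0.12 (limma adjusted p = 0.699). Without array 2 labelled FMR1-KO the difference was 0.12 for Mrps31, 0.098 for Mrpl47 and 0.06 for Mrpl16, and with the microglia covariate that of Mrps31 was 0.03. Mrps16, the counterpart of S16 and a cause of mitochondrial disease when mutated in humans, read 6.89, 7.31, 6.68, 6.54 and 6.42 on arrays labelled FMR1-KO, against 6.97, 6.55, 6.39, 6.83 and 6.51 on Control arrays. Its difference was 0.12 ± 0.17, and a dimmer probe set gave -0.24. Mrps12, the counterpart of the S12 protein that sets decoding accuracy, differed by 0.09 ± 0.09. Mrps22 and Mrps34, both mutated in human mitochondrial disease, differed by -0.05 ± 0.10 and -0.09 ± 0.09, and Mrps28 by -0.12 ± 0.11. These 4 genes had limma adjusted p of 0.789 or more. Mrps30, of the large subunit, differed by -0.12 ± 0.11, and by -0.02 without array 5 labelled FMR1-KO. Without the dimness filter Mrps36 differed by 0.02 ± 0.08 (limma adjusted p = 0.972).

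Mammals have 3 relatives of the bacterial protein S18, of which mitochondrial ribosomes carry Mrps18a in the large and Mrps18b and Mrps18c in the small subunit. All 3 had a lower mean on arrays labelled FMR1-KO and none passed the test. Mrps18b read 7.28, 6.996, 7.40, 7.60 and 7.56 on arrays labelled FMR1-KO, against 7.24, 7.38, 7.87, 7.64 and 7.62 on Control arrays, a difference of -0.18 ± 0.14. Mrps18c read 6.16, 6.43, 6.07, 6.05 and 6.30 on arrays labelled FMR1-KO, against 6.72, 6.13, 6.35, 6.29 and 6.34 on Control arrays, a difference of -0.17 ± 0.12. The groups of each overlapped, and Mrps18a differed by only -0.04 ± 0.09. Without array 2 labelled FMR1-KO the difference of Mrps18b was -0.09, and without Control array 1 that of Mrps18c was -0.08. A dimmer probe set gave -0.24 for Mrps18b and 0.09 for Mrps18c. Over the 9 members with a second probe set, the signs of the differences matched in 3 and were opposite in 6.

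Members with a bacterial counterpart and those added in mitochondria had like counts. Mrps18a and Mrps18b, though relatives of S18, were counted among those added in mitochondria, and Mrps18c among those with a counterpart. In the large subunit 8 of 28 genes with a counterpart and 5 of 17 without were higher on arrays labelled FMR1-KO, with medians of -0.05 and -0.07. In the small subunit these were 7 of 15 and 5 of 10, with medians of -0.04 and -0.01. Members with and without a motif in the promoter window were also set side by side, with no test. The median difference was -0.04 for the 23 members with the ETS motif, with 9 higher and 14 lower. For the 38 without it the median was -0.05, with 15 higher and 23 lower. The 12 members with the YY1 motif had a median of -0.04, with 2 higher and 10 lower. For the 49 without it the median was -0.05, with 22 higher and 27 lower. For the 7 members with the NRF1 motif the median was -0.10, with 1 higher and 6 lower, and for the 54 without it -0.04, with 23 higher and 31 lower.

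Genes that work with the mitochondrial ribosome had no called member in any list, and their medians were above 0. Among 30 ribosome assembly genes 17 were higher and 13 lower on arrays labelled FMR1-KO (median 0.03), with Malsu1, which keeps the immature large subunit from joining, at 0.18 ± 0.11 and Grsf1, an RNA granule protein, at -0.18 ± 0.09. Of 14 mitochondrial translation factors, 11 were higher and 3 lower (median 0.07), with the release factor Mtrf1 at 0.15 ± 0.09 and the initiation factor Mtif3 at -0.13 ± 0.14. Of 19 genes for charging mitochondrial tRNA, 13 were higher and 6 lower (median 0.03), with the synthetase genes Fars2 at 0.23 ± 0.15 and Yars2 at -0.13 ± 0.09. The limma adjusted p values of these 6 genes were 0.657 or more. The ribosomal proteins under other symbols, Dap3, Ptcd3 and Gadd45gip1, differed by 0.04, 0.03 and -0.11. Among 15 genes for mitochondrial DNA upkeep and transcription, 8 were higher and 7 lower (median 0.03). Yy1, the factor of the motif above, read 8.11 ± 0.17 on arrays labelled FMR1-KO and 8.42 ± 0.19 on Control arrays (SD, n = 5 each), a difference of -0.31 ± 0.11 (limma adjusted p = 0.654). Ppargc1a, a coactivator of mitochondrial genes, differed by 0.36 ± 0.24 (limma adjusted p = 0.699), with 9.72 and 9.97 on arrays 1 and 2 labelled FMR1-KO and 8.55 to 9.25 on the other 8 arrays.

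The nuclear respiratory chain genes and the cytoplasmic ribosomal protein genes gave a wider frame. Over 76 respiratory chain and ATP synthase genes, 25 were higher and 51 lower on arrays labelled FMR1-KO (median -0.06). Their mean was 7.86, 7.96, 7.67, 7.60 and 7.39 on arrays labelled FMR1-KO and 8.02, 7.77, 7.60, 7.89 and 7.57 on Control arrays. As for the mitochondrial ribosome, array 2 was the highest and array 5 the lowest of the arrays labelled FMR1-KO. Among the respiratory chain genes, Ndufa11 differed by -0.46 ± 0.15 and Ndufa1 by -0.59 ± 0.21, both with a limma adjusted p of 0.654. The 62 cytoplasmic ribosomal protein genes, which serve the other ribosome of the cell, had means of 7.56, 7.48, 7.65, 7.68 and 7.48 on arrays labelled FMR1-KO and 7.69, 7.93, 7.83, 7.91 and 7.80 on Control arrays. Here all arrays labelled FMR1-KO lay below all Control arrays, 56 of 62 genes were lower, and the median was -0.27. At an unadjusted p under 0.05, 32 of these 62 genes were lower, beside 3.53% of all genes. For the respiratory chain genes this was 2 of 76. No gene of either list passed after adjustment with limma. Rpl35 differed by -0.46 ± 0.09 and Rps12 by -0.55 ± 0.11, both with a limma adjusted p of 0.654. All 13 microglia markers were also lower in mean on arrays labelled FMR1-KO (median -0.57, 4 at an unadjusted p under 0.05). The 7 choroid plexus markers were all lower too (median -0.29, 0 at that level). Lower means were also found for 8 of 9 measured endothelial markers (median -0.23, 3 at that level) and 7 of 9 neuron markers (median -0.06, 2 at that level). Oligodendrocyte markers were divided, with 4 higher and 4 lower. The 14 astrocyte markers were all higher, with a median of 0.41 and 5 at that level. Over all genes, 3.53% were lower and 4.0% higher at that level, and none of these markers was called. The part of these markers in the values of either kind of ribosomal protein gene was not tested beyond the covariate fit given above.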

How the data were processed

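The authors deposited 1 log2 signal level for each probe set and array, a scale read from the values themselves. Cells were sorted on EGFP, and cDNA was amplified, fragmented and labelled with biotin, per the labels' protocols. The authors compared the genotypes in GeneSpring, per the labels' design text. How they corrected background, normalized and summarised probe sets is not given in the sources, and the number of arrays limits the precision.

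Of 33793 probe sets, 23521 had 1 gene symbol in the platform annotation, 1814 had several and 8458 had none. The GRCm38.p6 table of RefSeq held the gene ID of 23328 of the first kind, and 0 symbols differed. The brightest probe set per gene was kept, and genes under the 25th percentile of probe set means were left out, which left 17712. Differences are means of arrays labelled FMR1-KO minus Control means, tested two-sided in R 4.3.3 with limma 3.58.1 (lmFit, then eBayes). Its p-values were adjusted after Benjamini-Hochberg across the 17712 genes and called under 0.05. The code of the fit was run on simulated data drawn for each gene on its own, which does not measure its power or error on these arrays. Lists were described by counts and medians, with no test.

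The members and all gene lists were chosen with earlier results of these data known. Named genes are Fmr1, a preset list of members and, among the members, the 5 smallest p per direction, the 3 brightest and dimmest probe sets, and the 3 widest and narrowest spreads. The members next to the dimness filter are named as well, and other members appear only within their structural group. Genes named from the pathway lists are among the 3 with the smallest p of their list. Of those 3, the Results leave out Rbfa (difference -0.15), Mtrf1l (0.13), Tars2 (0.12), Esrra (-0.18), Atp5g2 (-0.24) and Rps28 (-0.50). Alternatives changed the normalization, filter, probe set rule, variance model, array weights, replicate block, arrays used and microglia covariate.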

Additional observations from a re-analysis of the deposited data

Results flagged for a closer look

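In 66 groups of 5 arrays, 2 held an array far from the other 4, with a gap to the nearest of them above 0.71 of the group's whole range. Chance gives about 1 such group in 20. Mrps22 read 5.90 on Control array 5, against 6.19 to 6.29 on the other Control arrays. Mrpl9 read 6.89 on Control array 2, against 7.03 to 7.08 on the other Control arrays.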

How the results depend on the processing

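No member passed the threshold under any of the 21 alternatives, and the lowest adjusted p of any member was 0.217 (limma, Mrpl12 without Control array 1). Over all genes 0 were called, with a range of 0 to 1 when single arrays were left out (Cnbd2, without Control array 5), and 1 (Tlcd1) without Control array 1 and FMR1-KO arrays 1 and 2, the arrays with the lowest microglia signal. Members with a difference above 0 numbered 25, but 16 with the microglia covariate and 13 without those 3 arrays, and 17 to 33 with single arrays left out. The members' median difference of -0.05 was -0.10 without those 3 arrays and -0.09 with the covariate, and ran from -0.07 (without FMR1-KO array 2) to -0.01 (without FMR1-KO array 5) with single arrays left out. The large minus small subunit difference of medians was -0.006, but -0.052 with a filter at the 50th percentile, -0.042 without Control arrays 2 and 3, and -0.046 to -0.0033 with single arrays left out. Of 604 values for 29 named genes, 587 kept their direction and 17 did not, and 23 genes kept it in every setting. Mrps16 (0.12) was -0.060 as the mean of its probe sets, -0.0033 without Control arrays 2 and 3, -0.16 with the microglia covariate, -0.027 without the 3 arrays, and -0.019 to 0.21 with single arrays left out. Mrpl55 (0.04) was -0.032 with array weights, -0.13 with the covariate, -0.10 without the 3 arrays, and -0.059 to 0.11 with single arrays left out. Mrpl58 (0.10) was -0.10 without Control arrays 2 and 3, and -0.014 to 0.15 with single arrays left out. Mrps22 (-0.05) was 0.013 without Control arrays 2 and 3, and -0.12 to 0.011 with single arrays left out. Mrpl45 (0.10) was -0.029 with the covariate and -0.11 without the 3 arrays, and Mrps18b (-0.18) was 0.042 with the covariate. The cause of these shifts was not tested. Whether the replicate numbers pair the arrays cannot be settled from the values. Deviations of same-numbered arrays correlated at 0.525, -0.015, 0.191, 0.002 and 0.150, and 1 of 10 arrays correlated best with its own number. With the replicate block 0 genes were called (lowest adjusted p 0.32), and the members' median was -0.05 with 25 higher.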
